A study of Bos taurus with 12 samples.

Results

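Fibroblast growth factor 21 (FGF21), its co-receptor beta-klotho (KLB) and the FGF receptors FGFR1, FGFR2, FGFR3 and FGFR4 were followed in the liver of early lactating dairy cows. The 6 genes are 6 of the 18010 genes that the array annotation names from transcripts with a single gene symbol, and each had 1 such transcript. They were taken by their symbols and not by a filter on their values, though with earlier results of these data known. Liver biopsies came from female Holstein cows in week 1 after calving (day 7), 6 in the control group and 6 in the group fed a meal extract made from the seed and marc of grapes (GSGME). GSGME supplied 1% of the dry matter of the ration from 3 weeks before the expected calving, and control cows received 1% wheat bran in its place. The basal ration was the same in both groups, primiparous and multiparous cows took part, and the labels give no ages. Each cow was measured once, on 1 Affymetrix Bovine Gene 1.0 ST array, and no cow belongs to both groups. Values are log2 signals from the RMA algorithm, so that a difference of 1 is a doubling of the signal.

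FGF21 is a hormone that the liver releases into the blood. In rodents its transcription in hepatocytes is raised by the fatty acid receptor PPARA during fasting and by the transcription factor ATF4 under amino acid shortage or stress of the endoplasmic reticulum (ER), and in dairy cows it is known as a hormone of the negative energy balance after calving. FGF21 binds to KLB and then activates an FGF receptor, mainly FGFR1, on fat cells and in the brain. In hepatocytes KLB is known above all as the partner of FGFR4, through which the gut hormone FGF19 lowers bile acid synthesis. FGFR2 and FGFR3 are receptor tyrosine kinases of the same family, and all 4 pass their signal through the adaptor FRS2 to the kinase ERK. The study names FGF21 as a sign of metabolic and ER stress, and the comparison asks whether its transcript and those of its receptors differed with GSGME.

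Array medians lay between 6.02 and 6.17, and correlations between arrays lay between 0.968 and 0.990. The tissue label was checked with marker genes. All 10 hepatocyte markers, albumin among them, were far above the array background, with a mean log2 signal between 12.23 and 12.43 in control cows and between 12.33 and 12.50 in GSGME cows. As a yardstick of background, 717 transcripts of olfactory receptors, genes of the nasal epithelium, had a median log2 signal of 3.67 and a 95th percentile of 5.62. Of 9 skeletal muscle markers 1 exceeded 5.62. Of 6 adipocyte markers 4 did (PLIN1, CIDEC, LPL and CIDEA), while ADIPOQ and LEP, with means of 5.02 and 4.37, did not. Whether fat cells were present was not tested. Stellate cell and fibroblast markers averaged between 6.80 and 7.01 in control cows and between 6.72 and 7.83 in GSGME cows. The value of 7.83 belonged to cow GSGME_821, which also had the highest mean of the lymphocyte markers, 7.03. Red cell markers, with 2 of 5 above 5.62, averaged between 5.38 and 5.82 in control cows and between 5.26 and 6.43 in GSGME cows. The value of 6.43 belonged to cow GSGME_741. The biopsies held several cell types, and fewer cells of a type cannot be told apart from less RNA per cell.

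FGF21 had the lower mean signal in GSGME cows, and the difference was smaller than the spread between cows. In control cows the log2 signal of FGF21 (transcript 12754619) had a lowest value of 5.52 in cow control_1031, a median of 6.40 and a highest value of 7.48 in cow control_819. In GSGME cows the lowest value was 5.42 in cow GSGME_1124, the median 6.19 and the highest 6.96 in cow GSGME_741. The groups overlapped almost wholly: 5 of 6 GSGME cows lay inside the range of the control cows, and 4 of 6 lay below the control mean. Control cows averaged 6.44 ± 0.66 and GSGME cows 6.16 ± 0.54 (SD over 6 cows). GSGME minus control was -0.28 ± 0.30 (SE), a fold of -1.21, with the minus sign for a signal divided by that factor (limma, adjusted p = 0.886 by Benjamini-Hochberg over 26773 transcripts). The two-sided exact permutation test over the cows gave p = 0.450. The 95% interval ran from -0.93 to 0.37, that is from a fold of -1.90 to a fold of 1.29, so these arrays leave room for a lower level with GSGME well beyond the 1.3-fold threshold of the study, as well as for a higher one of less than that threshold.

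**Figure D1:**
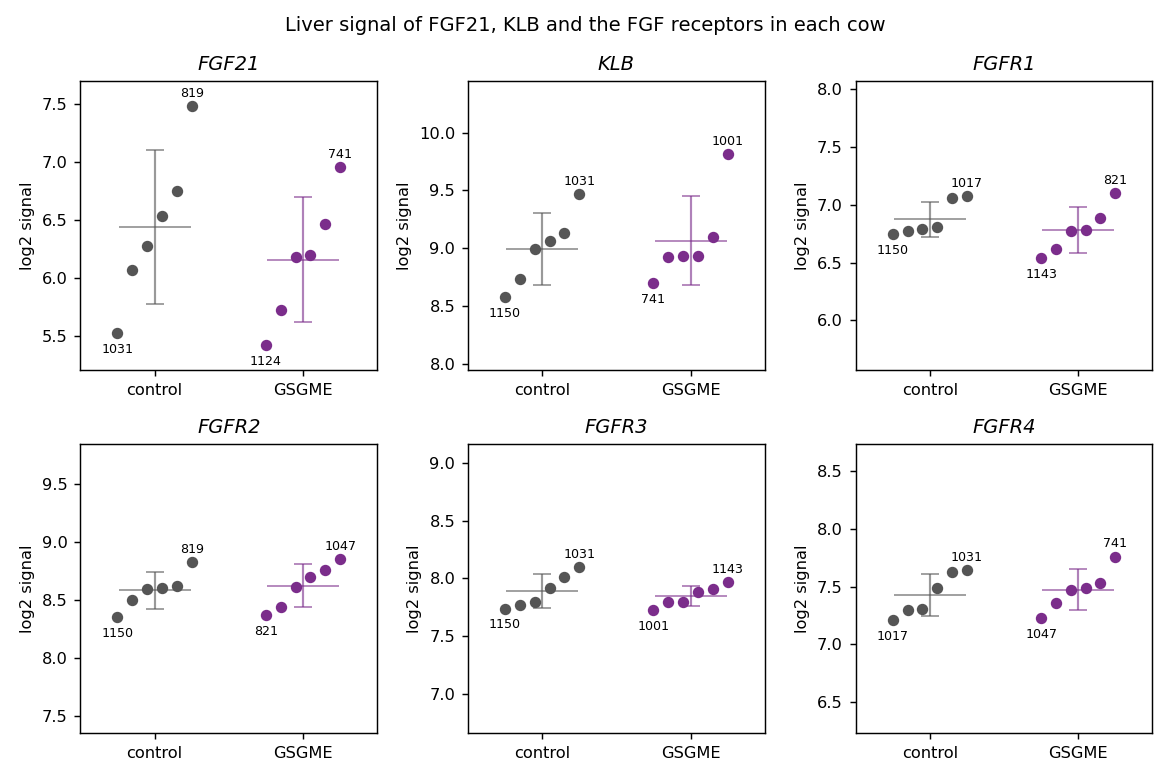
Log2 signal (y axis, each panel spanning the same width of 2.5 log2 units) of the 6 genes in each control (grey) and GSGME (purple) cow; every point is 1 cow, the horizontal bar is the group mean, the whiskers are the SD of 6 cows, and the numbers name the lowest and the highest cow of each group. FGF21 spread from 5.42 to 7.48 and KLB from 8.58 to 9.81, whereas the 4 receptors stayed within narrow bands, and the groups overlapped in every panel.

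How far FGF21 moved depended on single cows. Without cow control_819 the difference was -0.07 (adjusted p = 0.936 in limma), and without cow GSGME_1124 it was -0.13 (adjusted p = 0.959). Without cow control_1031 it was -0.46 (adjusted p = 0.853) and without cow GSGME_741 it was -0.44 (adjusted p = 0.953). The mean of GSGME cows stayed below that of control cows with any 1 cow left out, and FGF21 did not pass the criterion in any of these fits. The 2 lowest cows, control_1031 and GSGME_1124, lay below 5.62, the 95th percentile of the olfactory receptors, where a signal is no longer set apart from the array background.

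KLB, the membrane protein without which FGF21 and FGF19 bind their receptors poorly, did not pass the criterion either. In control cows its log2 signal ranged from 8.58 in cow control_1150 to 9.47 in cow control_1031, with a median of 9.02. In GSGME cows it ranged from 8.70 in cow GSGME_741 to 9.81 in cow GSGME_1001, with a median of 8.93. The GSGME group thus had the lower median but the higher mean, 9.06 ± 0.39 against 8.99 ± 0.31 (SD, n = 6 each). GSGME minus control was 0.07 ± 0.18 (SE; limma, adjusted p = 0.952; exact permutation test, p = 0.751), with a 95% interval of -0.32 to 0.46. Cow GSGME_1001 stood 0.71 above the next GSGME cow, and without it the sign turned, to -0.08 (adjusted p = 0.924 in limma). Without cow control_1150 it was -0.01 (adjusted p = 0.997).

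FGFR1, the receptor through which FGF21 acts on fat cells, was the receptor with the largest difference. Its log2 signal in control cows ranged from 6.75 to 7.08 with a median of 6.80, and in GSGME cows from 6.54 to 7.10 with a median of 6.78. GSGME minus control was -0.09 ± 0.10 (SE; limma, adjusted p = 0.886; exact permutation test, p = 0.383). All 6 control cows lay inside the range of the GSGME cows. The highest FGFR1 signal, 7.10, was that of cow GSGME_821, the cow with the highest stellate cell and fibroblast markers, a cell class that is known to carry FGFR1. The highest FGFR1 signal among control cows, 7.08, was that of cow control_1017, whose mean of these markers, 6.80, was the lowest of the control cows. Without cow GSGME_821 the difference was -0.16 (adjusted p = 0.873 in limma), and the part of the other cell types in this difference was not tested.

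FGFR4, the FGF receptor that hepatocytes are best known for, overlapped between the groups. The control cows ranged from 7.21 to 7.64 (median 7.40) and the GSGME cows from 7.23 to 7.76 (median 7.48), and 5 of 6 GSGME cows lay inside the control range. The means were 7.43 ± 0.18 and 7.47 ± 0.18 (SD, n = 6 each), a difference of 0.04 with a 95% interval of -0.18 to 0.27 (limma, adjusted p = 0.948; exact permutation test, p = 0.686).

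FGFR2 and FGFR3 showed no larger shift. FGFR2 ranged from 8.35 to 8.83 in control cows (median 8.59) and from 8.37 to 8.85 in GSGME cows (median 8.65), a difference of 0.04 with a 95% interval of -0.18 to 0.26 (limma, adjusted p = 0.953). FGFR3 ranged from 7.74 to 8.10 in control cows (median 7.86) and from 7.73 to 7.97 in GSGME cows (median 7.84), a difference of -0.04 with a 95% interval of -0.22 to 0.14 (limma, adjusted p = 0.937). Exact permutation tests gave p = 0.697 for FGFR2 and p = 0.567 for FGFR3. The FGFR2 ranges covered almost the same band, whereas 2 control cows, control_1031 at 8.10 and control_1041 at 8.01, had more FGFR3 signal than any GSGME cow.

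Set against all transcripts, 0 of the 6 genes met the criterion of the study in limma, which asks for more than 1.3-fold and an unadjusted p below 0.05. Of the 26773 transcripts tested 1.83% met it, 1.2% with the higher and 0.624% with the lower signal in GSGME cows. None met it in the methods' t-test either, where 1.25% of transcripts did. In limma, 0 of the 6 had an unadjusted p under 0.05, against 5.85% of all transcripts. Between the groups, 3 of the 6 genes were on the higher and 3 on the lower side. The width of the intervals separates them into 2 kinds. With all cows, the 95% interval of each of the 4 receptors lay inside a 1.3-fold change in either direction (0.38 on the log2 scale). These intervals are not adjusted for the number of genes, and none is given with a cow left out. Without cow GSGME_821 the FGFR1 difference was -0.16 ± 0.1 (SE), and whether its interval then stays inside 1.3-fold was not tested. For FGF21 and KLB the interval with all cows reached past 1.3-fold, on the lower side for FGF21 and on the higher side for KLB.

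**Figure D2:**
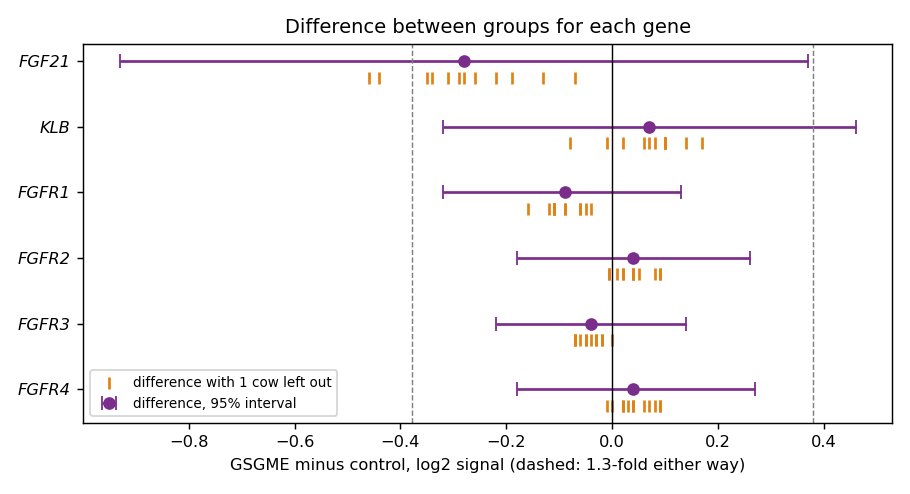
Difference between the group means, GSGME minus control, in log2 signal (x axis) for each gene, with the 95% interval from limma (purple point and bar) and the 12 differences obtained with 1 cow left out (orange ticks); dashed lines mark 1.3-fold in either direction. The bars of the 4 receptors lie inside the dashed lines, while that of FGF21 reaches down to -0.93 and that of KLB up to 0.46.

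What set FGF21 apart among the 6 genes was how much it differed from cow to cow. Its SD within groups was 0.61 on the log2 scale, larger than that of 97.9% of all transcripts and of 98.5% of the 5328 transcripts within 0.5 of its mean signal. The lowest and the highest of the 12 cows were 2.06 apart, a 4.17-fold range of signal, which is no exact fold of transcript because the 2 lowest cows were not set apart from the background. KLB followed with an SD of 0.35, larger than that of 87.8% of transcripts, and a 2.35-fold range. The receptors had smaller SDs, of 0.18 for FGFR1 and FGFR4, 0.17 for FGFR2 and 0.12 for FGFR3. These exceeded the SD of 37.8% of transcripts for FGFR1, 39.7% for FGFR4, 35.4% for FGFR2 and 9.74% for FGFR3. These positions describe the 12 cows and were not tested.

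**Figure D3:**
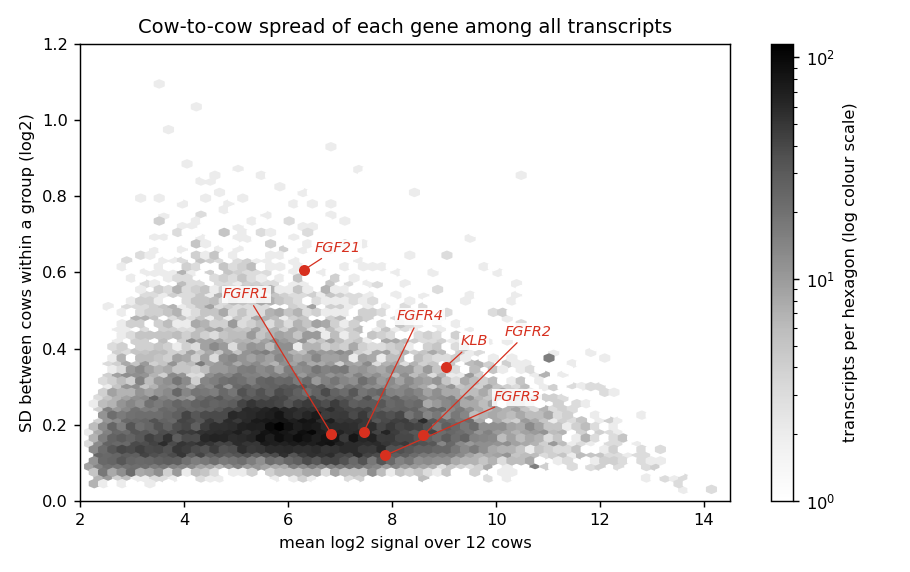
SD between cows within a group (y axis, log2 signal) against the mean log2 signal over 12 cows (x axis) for all 26773 transcripts, with darker hexagons for more transcripts and the 6 genes in red. FGF21, at 0.61, lies near the upper edge of the cloud at its level and KLB, at 0.35, above most of it, while the 4 receptors lie within or below its dense band.

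No common pattern from cow to cow was detected among the 6 genes. Over the 12 cows the 15 pairs had Pearson correlations between -0.41 and 0.42, and none passed in a permutation test, raw or after Benjamini-Hochberg adjustment over 36 pairs. FGF21 and KLB had r = -0.41 (rho = -0.22, permutation p = 0.187 and 0.479, adjusted p = 0.986 and 0.920), and without the 2 cows farthest from the FGF21 median, control_819 and GSGME_1124, r was -0.71. The value without these 2 cows was not tested. FGF21 and FGFR2 had r = 0.42 (rho = 0.42, permutation p = 0.179 and 0.178, adjusted p = 0.986 and 0.920), and 0.41 without the same cows. Cow control_1031 had the lowest FGF21 of its group and the highest KLB, FGFR3 and FGFR4. Cow GSGME_741 showed the reverse for the hormone and its co-receptor, with the highest FGF21 and the lowest KLB of its group. Other cows were low in both. Counted from the highest of the 12 cows, control_1150 ranked 9th in FGF21 and 12th in KLB, and GSGME_1124 ranked 12th and 9th.

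Other members of the FGF ligand family were measured beside FGF21. Of 21 ligands, 0 passed the criterion, 5 differences were above and 16 below 0, and the median difference was -0.02, equal to that over all transcripts. Only 7 of the 21 exceeded the 95th percentile of the olfactory receptors. FGF19, the bile acid hormone of the gut, had means of 5.07 and 4.98 and was not set apart from the background. FGF12, which acts inside cells and is not secreted, was the nearest to the criterion. It ranged from 7.45 to 8.28 in control and from 7.91 to 8.40 in GSGME cows, a fold of 1.29 (limma, unadjusted p = 0.0197, adjusted p = 0.830, exact permutation p = 0.0455). FGF1, a ligand of all 4 receptors, ranged from 5.51 to 5.70 in control and from 5.66 to 6.12 in GSGME cows, a fold of 1.18 (limma, unadjusted p = 0.0134, adjusted p = 0.830, exact permutation p = 0.00649). All 6 GSGME cows lay above the control mean for each of these 2 ligands, but the FGF1 mean of control cows, 5.60, was below 5.62 and not set apart from the background.

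Accessory proteins of FGF signalling comprised the related co-receptor alpha-klotho (KL), the decoy receptor FGFRL1, the FGF21-cleaving protease FAP and heparan sulfate carriers. Of 15 measured, 0 passed the criterion and the median difference was 0.06. CDH2 (N-cadherin), an adhesion protein that can bind FGF receptors, had a fold of 1.24 (limma, unadjusted p = 0.0160, adjusted p = 0.830, exact permutation p = 0.0346), and the heparan sulfate carrier GPC4 a fold of 1.19 (exact permutation p = 0.0368, adjusted p = 0.830 in limma). For CDH2 all 6 GSGME cows lay above the control mean but inside the control range, which cow control_819 extended upwards. Of 19 genes that relay the signal from the receptors to ERK, 0 passed, with a median difference of 0.01. FRS3, a docking protein for FGF receptors, had a fold of -1.23 (limma, unadjusted p = 0.0228, adjusted p = 0.830, exact permutation p = 0.0152) and the GTPase HRAS one of -1.15 (exact permutation p = 0.0368, adjusted p = 0.830 in limma).

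Genes that are transcribed after ERK activity or that limit it were counted as a readout downstream of any FGF receptor, although many other receptors act on them too. Of 22 measured, 1 was higher, 1 was lower and 20 did not pass, with a median difference of -0.06. DUSP6, a phosphatase that switches ERK off, was the higher one. It ranged from 8.50 to 9.10 in control cows (median 8.74) and from 9.08 to 9.65 in GSGME cows (median 9.42), so that only cow GSGME_821 among GSGME cows fell inside the control range. Its fold was 1.55 (limma, unadjusted p = 0.000233, adjusted p = 0.830, exact permutation p = 0.00433). PHLDA1, a gene induced by growth factors and by ER stress, was the lower one with a fold of -1.43 (exact permutation p = 0.0173, adjusted p = 0.830 in limma). Among the feedback inhibitors named sprouty, SPRY2 did not pass at a fold of -1.24 (exact permutation p = 0.0281, adjusted p = 0.830 in limma). DUSP6 and PHLDA1 passed in every fit, with each cow left out and in the methods' t-test. Over all cows pooled, no correlation of DUSP6 with FGF21 was detected (r = 0.02, rho = 0.04, permutation p = 0.942 and 0.899, adjusted p = 0.992 and 1.00 over 24 pairs chosen after the values were seen; without control_819 and GSGME_1124, r = 0.28). The DUSP6 means differ between the groups, and after removal of the group means r was 0.42. It was 0.70 within control cows and -0.01 within GSGME cows (exact permutation p = 0.122 and 0.989).

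**Figure D4:**
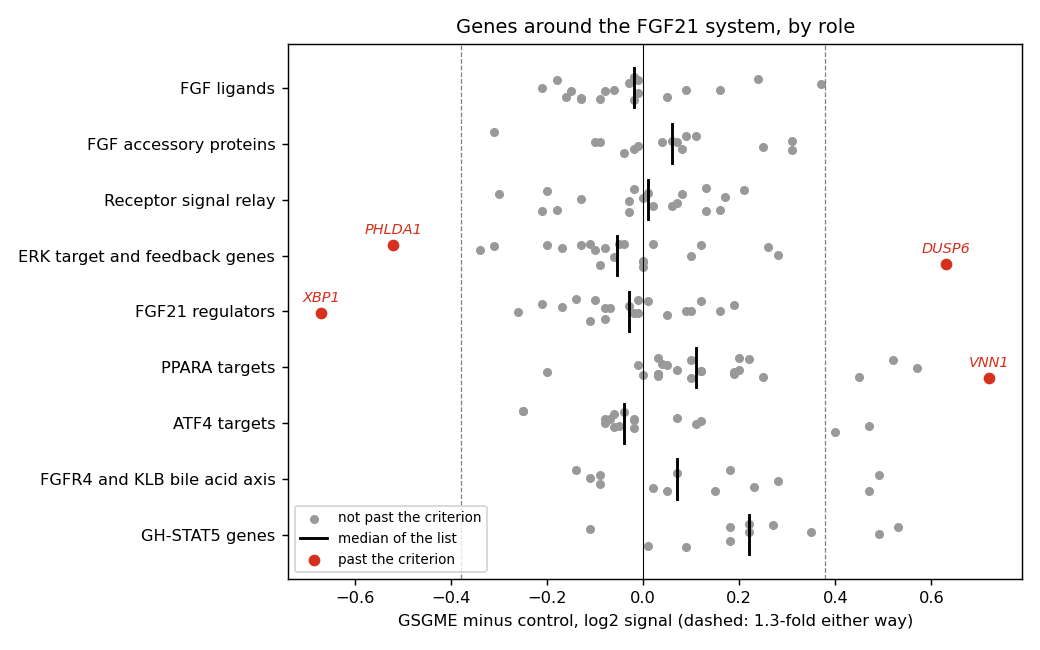
Difference between the group means, GSGME minus control, in log2 signal (x axis) for each measured gene of 9 lists around FGF21 and its receptors (rows); grey points did not pass the criterion, red points did and are named, black bars are list medians and dashed lines mark 1.3-fold in either direction. The 4 genes past the criterion are DUSP6 and VNN1 on the higher side and PHLDA1 and XBP1 on the lower side.

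Factors known from rodent or human liver to act on FGF21 transcription were next. Of 21 measured, 0 were higher, 1 was lower and 20 did not pass, with a median difference of -0.03. XBP1, the transcription factor of the ER stress sensor IRE1, was the lower one, with a range of 11.19 to 11.76 in control and 10.40 to 11.43 in GSGME cows and a fold of -1.59 (limma, unadjusted p = 0.000767, adjusted p = 0.830, exact permutation p = 0.00866). MLXIPL, the carbohydrate sensor ChREBP, had a fold of -1.19 (exact permutation p = 0.0541, adjusted p = 0.830 in limma). PPARA itself had a difference of -0.17 (adjusted p = 0.840 in limma) and ATF4 one of -0.11 (adjusted p = 0.886), neither past the criterion.

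FGF21 was set against each of these 21 factors over the 12 cows. The correlations ran from -0.32 to 0.63, and none passed after adjustment over 36 pairs. Positive were 18 of 21, and the share of positive ones over all transcripts was not counted. Within a single group the lowest exact permutation p was that of MLXIPL in control cows (r = -0.89, p = 0.00278, not adjusted). In GSGME cows MLXIPL had r = -0.40 (exact permutation p = 0.433). ATF4 had r = 0.63 with FGF21 (rho = 0.61, permutation p = 0.0270 and 0.0401, adjusted p = 0.535 and 0.920). It was 0.58 within control cows and 0.67 within GSGME cows (exact permutation p = 0.219 and 0.144), and 0.78 without control_819 and GSGME_1124. RXRA, the partner of PPARA on DNA, had r = 0.63 as well (rho = 0.51, permutation p = 0.0297 and 0.0940, adjusted p = 0.535 and 0.920), which became 0.45 without these 2 cows. PPARA had r = -0.08 (rho = -0.18, permutation p = 0.797 and 0.571, adjusted p = 0.986 and 0.920), and -0.80 without them. No correlation without these 2 cows was tested. XBP1 had r = 0.41 (rho = 0.42, permutation p = 0.185 and 0.171, adjusted p = 0.986 and 0.920), and 0.16 without them. Cow control_1031, low in FGF21, also had the lowest ATF4 signal of all cows, 10.09, whereas cow control_819, highest in FGF21, had an ATF4 signal of 10.57 near the control median of 10.62.

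**Figure D5:**
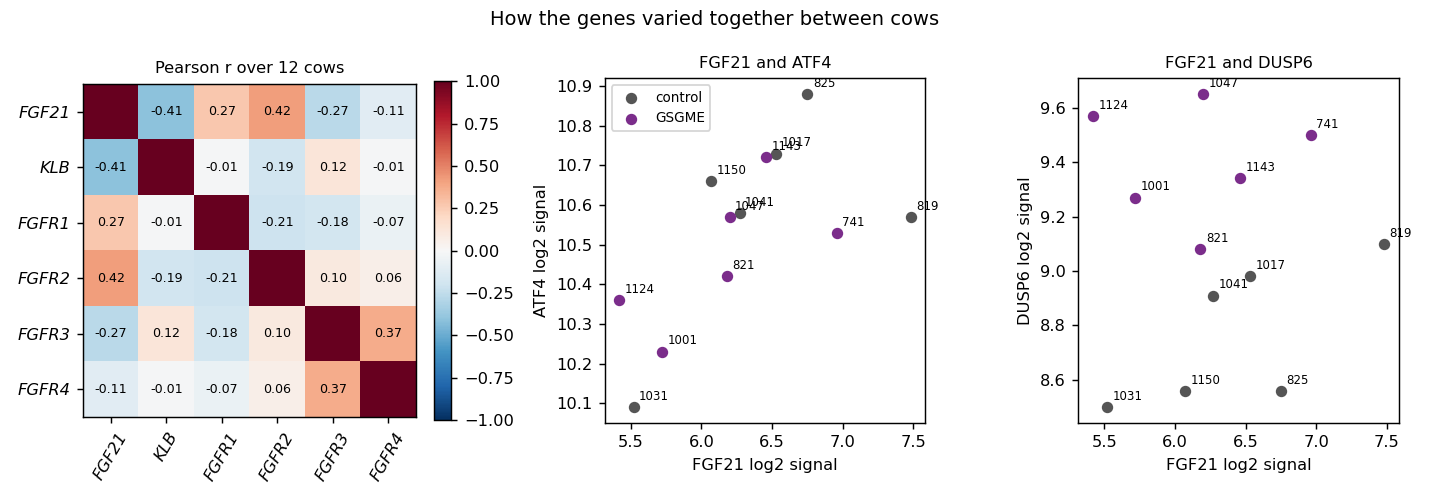
Left, Pearson correlations between the log2 signals of the 6 genes over 12 cows (colour from -1 to 1); middle and right, ATF4 and DUSP6 log2 signal (y axis) against FGF21 log2 signal (x axis), with each point 1 cow named by its number, grey for control and purple for GSGME. The 15 correlations lie between -0.41 and 0.42; r with FGF21 is 0.63 for ATF4 and 0.02 for DUSP6, where 5 of 6 GSGME cows lie above every control cow.

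Pathways that share regulators or receptors with FGF21 were counted in the same way. Of 24 genes under PPARA, which serve fatty acid oxidation and ketone body synthesis, 1 was higher and 0 were lower, while 22 of the 24 differences were above 0, with a median of 0.11. Over all transcripts, 12112 of 26773 differences were above 0 and the median was -0.02. VNN1, a pantetheinase and PPARA target, was the higher one, from a control range of 8.31 to 10.26 to a GSGME range of 9.66 to 10.78 and with a fold of 1.65 (limma, unadjusted p = 0.0316, adjusted p = 0.830, exact permutation p = 0.0671). The methods' t-test did not call it, and neither did limma without any one of control_1031, control_1150, GSGME_1047 and GSGME_1124. FABP1, the fatty acid binding protein of the liver, did not pass at a fold of 1.49 (exact permutation p = 0.115, adjusted p = 0.830 in limma). The mean signal over the PPARA targets lay between 9.37 and 9.89 in control cows and between 9.70 and 10.02 in GSGME cows, with the value of 9.37 in cow control_1031.

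Of 17 genes of the ATF4 branch, 0 passed in either direction, and the median difference was -0.04. CHAC1, a glutathione-degrading enzyme, had a fold of -1.19 at a mean signal below 5.62 (exact permutation p = 0.0216, adjusted p = 0.830 in limma), and PHGDH, the first enzyme of serine synthesis, had a fold of 1.31 (exact permutation p = 0.130, adjusted p = 0.830 in limma). Of 13 genes of the bile acid axis that FGFR4 and KLB serve, 0 passed. CYP7A1, the rate-limiting enzyme of bile acid synthesis that FGF19 lowers through FGFR4, had means of 11.08 ± 0.95 and 11.13 ± 0.47 (SD, n = 6 each; limma, adjusted p = 0.987). The bile acid transporters SLC10A1 and SLC51B had folds of 1.21 and 1.40 (exact permutation p = 0.0390 and 0.0887, adjusted p = 0.830 in limma for each). Of 11 genes of growth hormone signalling, a pathway that FGF21 lowers in mouse liver, 0 passed. Of the 11 differences, 10 were above 0, with a median of 0.22, beside 12112 of 26773 and -0.02 over all transcripts. The list also holds SOCS2, an inhibitor of the pathway, so this count gives no direction of growth hormone signalling. The mean signal over these 11 genes lay between 8.06 and 8.81 in control cows and between 8.64 and 8.85 in GSGME cows. The lowest control values were 8.06 in cow control_1150 and 8.35 in cow control_1017. Cow control_1150 had an FGF21 signal of 6.07, below the control mean of 6.44, and cow control_1017 one of 6.53, above it. A link of these genes to FGF21 was not tested. SOCS2, the feedback inhibitor of growth hormone signalling, had a fold of 1.27 (exact permutation p = 0.210, adjusted p = 0.843 in limma), and the carrier protein IGFBP2 one of 1.16 (exact permutation p = 0.245, adjusted p = 0.844 in limma). Over all 9 lists, 4 of 159 genes passed the criterion, or 2.52%, against the 1.83% of all transcripts, a share near the background.

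For each of the 6 genes the transcripts most like it were those with the highest Pearson correlation over the 12 cows, among 10368 other transcripts with a single symbol and a mean above the median transcript. With so many transcripts and 12 cows, correlations of this size are a description and carry no test. FGF21 was most like HGS (r = 0.85), an endosomal sorting protein, THADA (r = 0.85) and SSBP2 (r = 0.84). KLB was most like LPGAT1 (r = 0.88), a lipid acyltransferase, EPS15 (r = 0.85), an endocytosis adaptor, and SMPDL3A (r = 0.84). FGFR1 was most like CCDC57, PTPN23 and M6PR (r between 0.81 and 0.83), and FGFR2 most like MFSD6, WDR36 and YIF1A (r between 0.87 and 0.90). FGFR3 was most like SOAT2 (r = 0.87), the cholesterol esterifying enzyme of hepatocytes, CEP250 and ACTN1 (r = 0.82 each), and FGFR4 most like LOC617648, HBQ1 and HLCS (r between 0.82 and 0.83). None of these 18 transcripts passed the criterion between the groups, and no 2 of the 6 genes shared a transcript among their nearest.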

How the data were processed

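Liver RNA of 12 cows, 6 control and 6 GSGME, was hybridised to 1 array per cow. Cell intensities came from the GeneChip Command Console of Affymetrix. The authors ran RMA on them in its Expression Console, which corrects background, normalizes across arrays and summarises probes. They annotated transcripts with the BovGene annotation file of the manufacturer. Software versions and genome build: not given in the sources used here. Deposited were log2 signals with 2 decimals for 26773 transcripts. Of these, 18457 carried 1 gene symbol in the platform annotation, 688 several and 7628 none. Of the gene IDs, 17996 matched a current bovine gene table and 0 symbols changed.

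Groups and cow numbers came from the sample titles. All transcripts were fitted with limma 3.58.1 in R 4.3.3 (lmFit and eBayes, two-sided), with Benjamini-Hochberg adjustment over 26773 transcripts and the study's criterion of a fold beyond 1.3 with an unadjusted p under 0.05. Intervals are 95% intervals from this fit. Exact permutation tests ran over all assignments of 12 cows to 2 groups of 6, where the smallest p is 0.00216. Correlations had 100000 permutations (all permutations within a group of 6). A gene with several transcripts was taken at its highest mean. The fit and the correlation step were tested on simulated data. Tables and permutations were handled in Python 3.11.15 (pandas 2.3.3, numpy 2.4.6). Ranks and the adjustment of the correlations were made in scipy 1.17.1 and plots in matplotlib 3.10.9.

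The 6 genes, the 9 lists of related genes and the 9 lists of cell type markers were chosen with earlier results of these data known, and the study itself names XBP1 and PHLDA1 from these samples. Named from the lists were all genes past the criterion and the 2 with the lowest p, and for each of the 6 genes the 3 transcripts most like it. SPRY2, FGF19, PPARA, ATF4, CYP7A1, RXRA, ADIPOQ and LEP were named outside this rule after their values were seen. As alternatives served the methods' t-test, a trended and robust eBayes, cyclic loess, array weights, only transcripts above the median transcript and leaving out each cow. No member had another transcript to try.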

Additional observations from a re-analysis of the deposited data

Results flagged for a closer look

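Of the 12 sets of 6 values (6 genes in 2 groups), 1 held a cow that stood apart. KLB in cow GSGME_1001 had a log2 signal of 9.81, and its gap of 0.71 to the next cow took up 0.640 of the range of the group, more than the 95% critical value of Dixon's test for 6 values. Chance flags about 1 in 20 such groups. The same cow had the highest KLB of all 12 cows and ranked 10th in FGF21. The mean of its hepatocyte markers was 12.35, inside the range of the other cows.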

How the results depend on the processing

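None of the 6 genes passed the study's criterion in any of the 17 alternatives, and their lowest unadjusted p in limma or the methods' t-test was 0.123. With 1 cow left out, the difference lay between -0.46 and -0.07 for FGF21, -0.08 and 0.17 for KLB, -0.16 and -0.04 for FGFR1, -0.0063 and 0.09 for FGFR2, -0.07 and 0.00033 for FGFR3, and -0.01 and 0.09 for FGFR4. The sign turned for KLB without control_1150 (-0.01) or GSGME_1001 (-0.08), for FGFR2 without control_1150 or GSGME_1047, for FGFR3 without control_1031, and for FGFR4 without control_1017 or GSGME_741, always at an unadjusted p of 0.596 or more. Over all transcripts, 322 were higher and 167 lower in limma, and 142 higher and 61 lower with only transcripts above the median transcript, where fewer were tested. The methods' t-test gave 109 lower. With 1 cow left out there were between 271 and 468 higher and between 139 and 289 lower, the 289 without control_819. After Benjamini-Hochberg adjustment 0 transcripts passed in limma, against 1567 at an unadjusted p under 0.05. The cause of these shifts was not tested.

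Counts over the lists with cows left out were added after seeing the data. The 1 higher PPARA target became 0 in the methods' t-test and without control_1031, and 2 without any one of control_1017, control_819, control_825 and control_1041. Its gene, VNN1, also lost its call without any one of control_1150, GSGME_1047 and GSGME_1124. FGF ligands went from 0 to 1 higher, FGF12, without any one of control_819, control_1041 and control_1031 and GSGME_821 and GSGME_1143. The bile acid axis went from 0 to 2 higher without control_819 or control_1041 and to 1 without control_1031 or GSGME_741. The lists were not counted with only transcripts above the median transcript. In that fit SLC51B of the bile acid axis passed, with a difference of 0.49 (limma, unadjusted p = 0.0497). Accessory proteins went from 0 to 1 without control_819 or control_1041, ATF4 targets without control_1041 or GSGME_1047, and growth hormone genes without control_1041. Cyclic loess brought none of the 36 correlations it was run for past the adjusted threshold. No paired analysis was possible because the groups share no replicate number. The limits are 12 arrays, log2 values rounded to 2 decimals, and FGF21 signals near background in 2 cows.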

Other observations

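The transcripts most opposed to the 6 genes were looked up after the values were seen. NME6, a nucleoside diphosphate kinase family member, mirrored KLB over the 12 cows (r = -0.96, rho = -0.96, and -0.97 after removal of the group means). It had its highest log2 signal, 6.43, in cow GSGME_741, which had the lowest KLB of its group, and its lowest, 5.69, in cow GSGME_1001, which had the highest KLB. DNM1L, the GTPase of mitochondrial fission, was the most opposed to FGFR4 (r = -0.92, rho = -0.91), and HADHA, an enzyme of fatty acid oxidation, to FGFR3 (r = -0.87, rho = -0.79). None of the 3 differed between the groups at the criterion, with limma p of 0.821, 0.991 and 0.516. These are the extremes among 10368 transcripts, so their size was not tested.

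Among the 24 pairs of the 6 genes with DUSP6, PHLDA1, XBP1 and VNN1, also chosen after the values were seen, FGFR2 and VNN1 had the highest correlation over all cows pooled (r = 0.64, rho = 0.76, permutation p = 0.0241 and 0.00608, adjusted p = 0.578 and 0.146), which became 0.31 without control_1150 and GSGME_1047 and 0.68 after removal of the group means. FGFR2 and DUSP6 had r = 0.51 (rho = 0.57, permutation p = 0.0924 and 0.0567, adjusted p = 0.992 and 0.681), and 0.22 without the same 2 cows. After removal of the group means, r of FGFR2 and DUSP6 was 0.73, the highest of the 24 pairs on that scale. Within control cows it was 0.53 and within GSGME cows 0.96 (exact permutation p = 0.339 and 0.00417, not adjusted over the pairs). Neither pair passed after adjustment over all cows pooled.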
